A study of Mus musculus with 6 samples.

Results

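The 3 sham libraries of a series of 6 were described as a baseline transcriptome of the fetal mouse heart at gestational day 15. They were chosen by their label, sham exposure, by a rule that uses no expression value. Earlier results of these data were known when the choice and the gene lists below were made. The libraries of the exposed hearts were not used. Because all 3 belong to 1 group, the values below are levels and the spread between pools, with no test between groups.

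The series is an inhalation study in FVB/NJ wild-type mice, an inbred strain. Sham dams breathed filtered room air, and the other dams breathed aerosolised nanoparticles of titanium dioxide, a white pigment (nano-TiO2). The nano-TiO2 target was 12 mg/m3 for 360 minutes a day on 6 non-consecutive days in a span of 8. The design set the first exposure at gestational day 5 and heart collection at gestational day 15. The 14 females of the study were 10 weeks old on purchase. Each sham library holds RNA from pooled fetal hearts, male and female together. How many hearts or litters entered a pool is not stated, so the spread between pools (sham 1, 2 and 3) may be technical, biological or both. The libraries are the inputs of an RNA methylation (m6A) immunoprecipitation, made without antibody from 3 µg of total RNA that had been broken into pieces of about 250 to 350 nucleotides, so they report abundance and not methylation.

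At this stage of mouse development the heart already beats and its chambers are divided, and its muscle cells still multiply. Fetal heart muscle uses a partly different set of contractile proteins from the adult heart, because gene pairs such as the alpha and beta myosin heavy chains exchange places around birth. It also leans more on glycolysis, while the adult heart burns mainly fatty acids. The blood inside the chambers carries red cells from yolk sac and fetal liver, which differ in the globins they make.

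Salmon assigned 22720009, 17152365 and 22588977 reads to transcripts in sham 1, 2 and 3. Levels are given in TPM, each transcript's share of the library corrected for its length and scaled to a fixed total, which allows genes to be compared with each other. Pools are compared in CPM, reads scaled to a fixed library total after TMM scaling, because haemoglobin took 22.5%, 36.9% and 18.7% of all TPM in sham 1, 2 and 3 and so lowered the TPM of all other genes most in sham 2. A gene's spread is the ratio of its highest to its lowest pool in CPM. Departures between pools recur below: sham 2 was highest in red-cell and hepatocyte transcripts, and sham 1 in a lung epithelial transcript and in embryonic globins. Sham 3 was highest in many striated muscle transcripts, with spreads over 2-fold in Ckm, Casq2, S100a1 and Myom2. Most of the 25 cardiomyocyte marker genes were also highest in sham 3 in CPM, but only 1 of the 25 had a spread over 2-fold. Others were highest in sham 2, among them Myh6 and Atp2a2, with spreads of 1.09 and 1.27. The part of these departures in other differences between pools was not tested. In bulk RNA, fewer cells of a type and less RNA per cell cannot be told apart.

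Of 35458 genes, 11082 reached a mean of 1 TPM, and 10725 of these (96.8%) are protein coding. The 35458 hold 21743 coding genes and 13172 pseudogenes, so few noncoding RNA genes could be counted and the 96.8% depends on that set. Levels fell off steeply: 5062 genes reached 10 TPM, 1098 reached 100, 146 reached 1000 and 3 reached 10000. The median gene among the 11082 stood at 8.32 TPM, and 15008 genes had no read in any pool. The 10 highest genes held 16.3%, 27.2% and 16% of reads in sham 1, 2 and 3, a mean of 19.9% ± 6.40 (SD, n = 3). Without sham 2, the mean was 16.2%. The 100 highest genes held 52.5% ± 6.06 of TPM (SD, n = 3).

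Among the classes of genes at the top were those of blood, respiration, translation and contraction. Of the 100 highest genes, 26 encode nuclear subunits of the respiratory chain and ATP synthase, 12 sarcomere proteins and 12 cytosolic ribosomal proteins. Another 7 are mitochondrially encoded, 5 are haemoglobins and 8 are pseudogenes, and 30 belong to none of these classes. Over all members of a class, the nuclear respiratory genes held 10.4% ± 2.16 of TPM, the ribosomal proteins 6.39% ± 0.858 and the 37 sarcomere genes 5.89% ± 0.655 (SD, n = 3 each). The sarcomere share was 5.92%, 5.22% and 6.53% in sham 1, 2 and 3. After haemoglobin, mitochondrially encoded and rRNA genes were set aside, the sarcomere share was 8.44%.

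**Figure D1:**
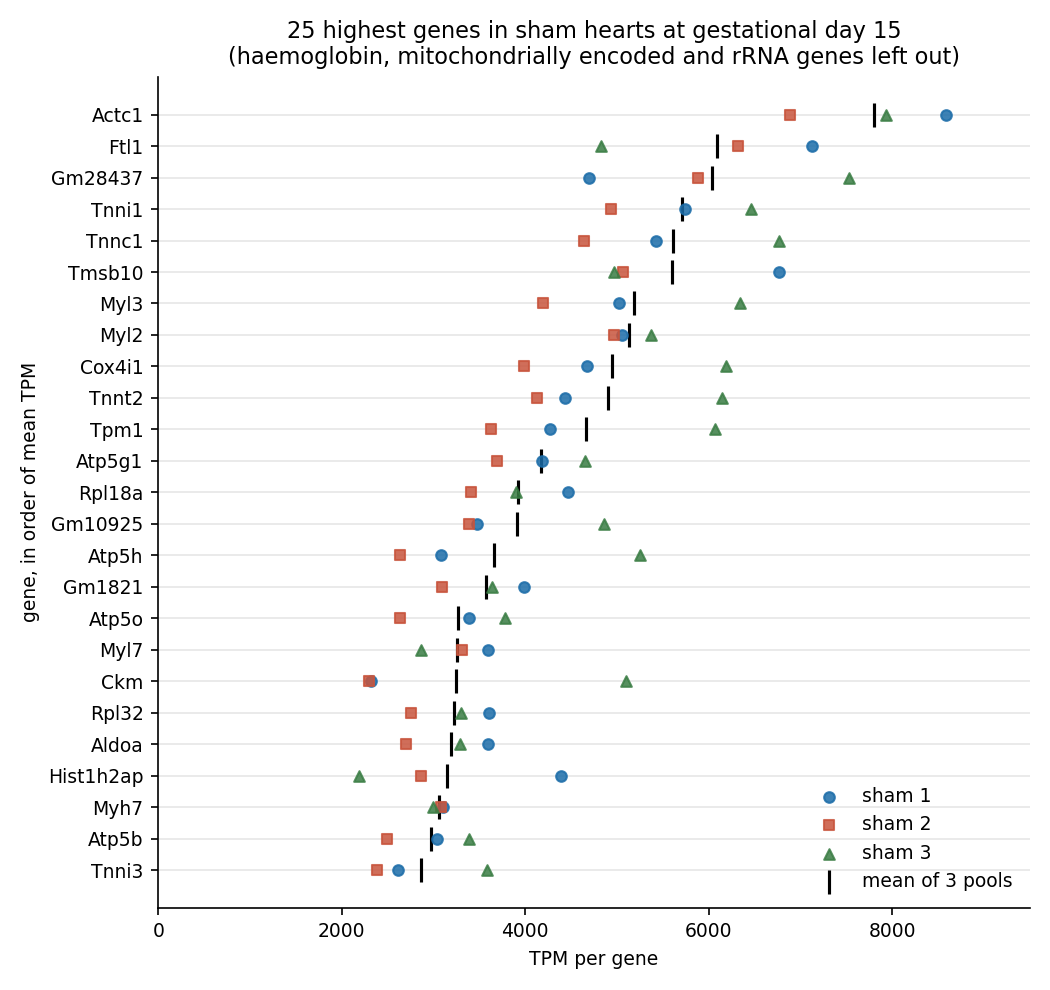
TPM (x axis) of the 25 highest genes (y axis, ordered by mean) in the 3 sham pools, with haemoglobin, mitochondrially encoded and rRNA genes left out; points are pools and the black bar is their mean. Actc1 stands first at 6892 to 8586 TPM, and Ckm shows sham 3 (5104 TPM) far to the right of sham 1 and 2 (2323 and 2295 TPM).

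The highest gene outside haemoglobin was Actc1, cardiac alpha-actin of the thin filament, which ranked 5 among all genes. It stood at 8586, 6892 and 7935 TPM in sham 1, 2 and 3, a mean of 7804 ± 855 (SD, n = 3), and in CPM its highest pool was 1.08 times its lowest. Outside the sarcomere and the mitochondrial genome, the highest coding genes without haemoglobin were Ftl1, the light chain of the iron store ferritin (7124, 6315 and 4829.8 TPM), and Tmsb10, an actin-binding thymosin (6772, 5066 and 4967 TPM). Both were lowest in sham 3.

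Of the thin filament genes, 13 of 13 reached 10 TPM and 9 reached 100 TPM. Tnni1, the slow skeletal and fetal troponin I, stood at 5737, 4934 and 6459 TPM. Tnnc1, the calcium-binding troponin C, stood at 5428, 4639 and 6764 TPM, and Tnnt2, the troponin T that ties the complex to tropomyosin, at 4430.2, 4127 and 6144 TPM. Tpm1, the tropomyosin that covers actin's myosin sites, stood at 4274, 3631 and 6073 TPM. For these 4 genes sham 3 was the highest pool and sham 2 the lowest in TPM. On the CPM scale sham 1 was the lowest instead, and the spread ran from 1.24 (Tnni1) to 1.55 (Tpm1).

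Among the thick filament genes, 12 of 12 reached 1 TPM and 8 reached 100 TPM. The ventricular light chains Myl3 (5024, 4188 and 6341 TPM) and Myl2 (5057, 4969.6 and 5373 TPM) led the list. The atrial regulatory chain Myl7 followed at 3593, 3309 and 2865 TPM. Myh7, the beta myosin heavy chain, was the steadiest of these in TPM at 3109, 3086 and 2998. That TPM sums a short fragment and the full coding form, which ranked the pools in opposite orders, as described further on. In CPM Myh7 stood at 9408, 8816 and 11066, a spread of 1.26, against 1.29 for Myl2. Mybpc3, myosin-binding protein C, had a mean of 542 ± 100.2 TPM. Only Myom2, an M-band protein, had a spread over 2-fold in this list, at 36.9, 41.1 and 102 CPM.

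At the Z-disc, all 12 genes reached 10 TPM and 9 reached 100 TPM. Cryab, a small heat shock protein that chaperones desmin, led at 1589, 1366 and 1667 TPM, followed by Csrp3, a muscle LIM protein (993, 879 and 1233 TPM), and Actn2, the alpha-actinin that anchors thin filaments (785, 820.3 and 763 TPM). Des, the muscle intermediate filament, stood at 404, 347 and 425 TPM. Ttn, the giant spring titin, reached 70.2, 48.8 and 77.7 TPM, since TPM divides by length, although it took 952, 822 and 1183 CPM.

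The promoters of Actc1 and Myl7, muscle genes that ranked 5 and 28 among all genes, are shown as examples. The promoter of Nppa was read in the same way, held none of the motifs looked for and is not shown. Each line gives the 120 bases before the RefSeq start (GRCm38.p6), 5′ to 3′ on the gene's strand. Capitals mark a CArG box, the binding motif of serum response factor, and in Myl7 also CCAAT. The Actc1 window is chr2:114052876-114052995, minus strand, and the Myl7 window chr11:5898783-5898902, minus strand.
Actc1: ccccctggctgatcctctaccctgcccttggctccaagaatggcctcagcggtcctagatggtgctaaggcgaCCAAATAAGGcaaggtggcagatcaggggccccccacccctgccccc
Myl7: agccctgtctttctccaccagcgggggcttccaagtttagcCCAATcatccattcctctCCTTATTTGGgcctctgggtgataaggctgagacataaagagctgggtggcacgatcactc
The CArG box began 47 bases before the start in Actc1 and 61 in Myl7. Over the 250 bases before the start and both strands, 7 of the 33 sarcomere genes with a listed promoter (21.2%) held a CArG box, against 1.40% of 27025 promoters. A match describes the letters in these windows and does not show binding.

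Several contractile and metabolic proteins exist as pairs of related genes, and the share of each pair's TPM that fell to the first gene was taken in every pool. Tnni1 held 68.7%, 67.4% and 64.3% of troponin I (Tnni1 with Tnni3), a mean of 66.8% ± 2.26 (SD, n = 3), so the fetal form was the larger in every pool. Cardiac alpha-actin exceeded the skeletal form (Acta1, 2.15% ± 0.264 of the pair) in every pool. Myh7 held 74.3%, 68.3% and 78.1% of Myh7 and Myh6, the beta and alpha myosin heavy chains, and the beta form was the larger in each.

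The atrial light chains were the smaller partners. Myl7 held 41.5%, 40.0% and 34.8% of the pair with ventricular Myl2, and Myl4 27.0%, 27.5% and 20.2% of the pair with Myl3. Sln, the atrial sarcolipin, held 9.51% ± 1.62 of the pair with phospholamban (Pln), both small inhibitors of the calcium pump. These are whole hearts, so the shares mix atria and ventricles in the proportions each pool held.

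For the enzymes, the muscle form was the larger in some pairs and the widespread form in others. Muscle forms led for creatine kinase (Ckb 10.3% ± 3.27 of the pair with Ckm), phosphoglycerate mutase (Pgam1 17.1% ± 3.08 of the pair with Pgam2) and carnitine palmitoyltransferase 1 (Cpt1a 2.12% ± 0.216 of the pair with Cpt1b). Widespread forms led for hexokinase (Hk1 91.1% ± 0.963 of the pair with Hk2) and for the cytochrome c oxidase subunits 6a, 7a and 8 (Cox6a1 75.7% ± 3.84, Cox7a2 66.2% ± 3.74 and Cox8a 81.4% ± 4.95). For enolase the order was not the same in all pools, since Eno1 held 51.3%, 46.2% and 36.0% of the pair with muscle Eno3. As shares of reads instead of TPM, Pgam1 held 31.6% and Cpt1a 3.28% of their pairs, each over 1.5 times the TPM share, with the muscle form still the larger.

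Ldha held 99.8%, 99.9% and 99.9% of the lactate dehydrogenase pair. Ldhb, the heart-type subunit, stood at only 2.65, 0.947 and 1.32 TPM, against 1721, 1218 and 1557 TPM for Ldha. The reads of Ldhb fell on different transcripts in different pools (Ldhb-204 held 95% of its TPM in sham 1 and none in sham 3), so its level is poorly resolved. Only 3 Ldhb transcripts were counted, Ldhb-202, Ldhb-203 and Ldhb-204, with no Ldhb-201 among them. Whether the low level of Ldhb, and so the share of Ldha, is one of RNA or of the transcript set was not tested. In 14 of the 18 pairs the first gene's share was lowest in sham 3. The exceptions were Myh7 and Hk1, lowest in sham 2, and Sln and Ldha, lowest in sham 1. The first gene of most pairs is the fetal, atrial or widespread form, but Acta1 and Ldha are the skeletal and muscle-type forms.

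**Figure D2:**
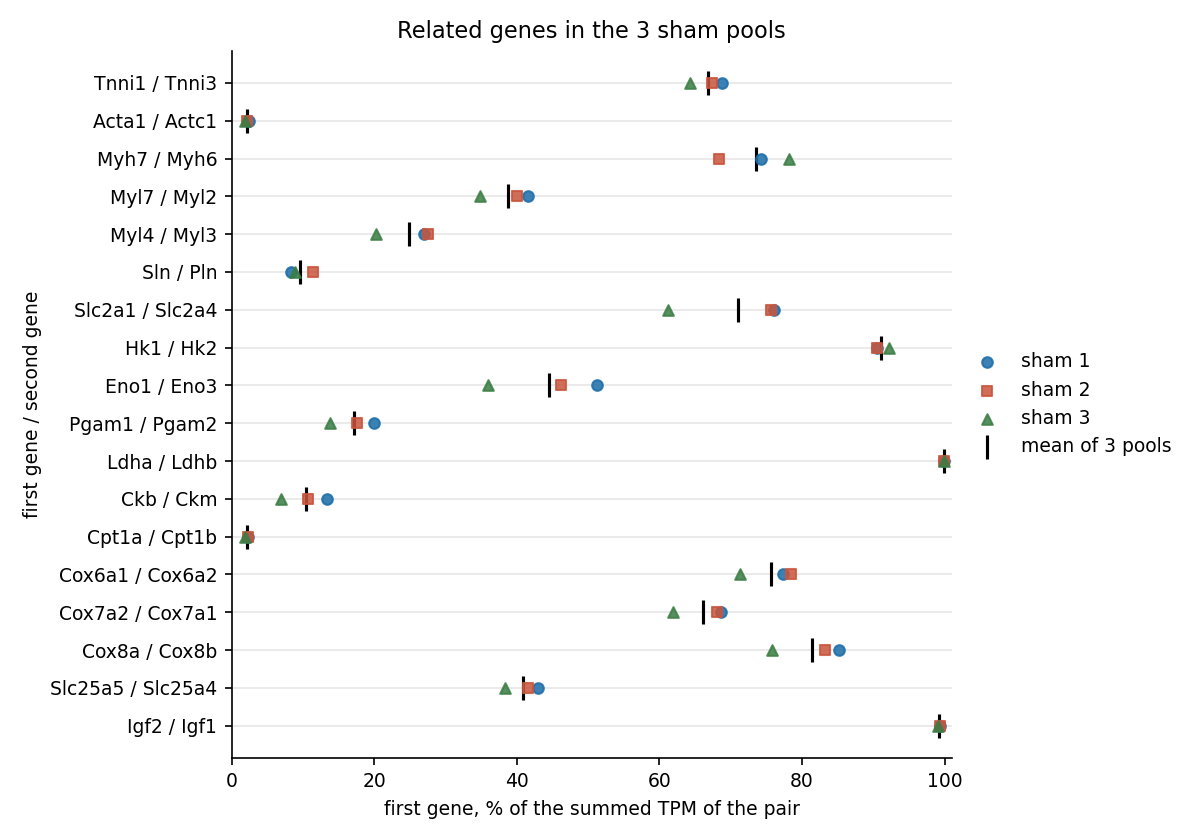
Share of the first gene in the summed TPM of each of 18 pairs (x axis, percent) in the 3 sham pools; points are pools and the black bar is their mean. Sham 3 sits furthest left in 14 of the 18 pairs, and the Eno1 points lie on both sides of 50%.

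Calcium handling genes were present throughout, with 13 of 14 at 1 TPM or more. Pln, the regulator of the sarcoplasmic calcium pump, was the highest at 694, 616 and 1069 TPM. S100a1, a calcium sensor of striated muscle, stood at 458, 410.5 and 907 TPM, and Casq2, the calcium store protein calsequestrin, at 146, 121 and 313 TPM. The pump itself, Atp2a2, had 86.3, 81.7 and 95.2 TPM, and the release channel Ryr2 5.10, 4.09 and 7.43 TPM. Against a background of 6.42% of 9763 genes (627) with a spread over 2-fold, 3 of 13 calcium genes with at least 5 CPM passed it: Casq2, S100a1 and Trdn, the anchor protein triadin (57.2, 107 and 149 CPM). All 3 were highest in sham 3, a size and direction that 3.11% of all genes had.

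Of 14 conduction genes, 10 reached 1 TPM and 5 reached 10 TPM. Gja1 (connexin 43, of working muscle) stood at 105, 58.4 and 149.5 TPM and Gja5 (connexin 40, of atria and the conduction system) at 69.3, 39.2 and 53.6 TPM. Hcn4, the pacemaker channel, stood at 1.85, 1.79 and 1.17 TPM. Kcnj2, the inward rectifier that sets the resting potential of mature ventricular cells, was at 0.543, 0.396 and 0.566 TPM. None of the 10 with at least 5 CPM had a spread over 2-fold, which is near the 6.42% of all genes.

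Nppa, atrial natriuretic peptide, which fetal ventricles also make, stood at 2134, 2316 and 2188 TPM and ranked 56. Nppb, the related B-type peptide, stood at 128, 98.1 and 212 TPM. Bmp10, a growth factor of trabecular and atrial muscle, was low at a mean of 1.07 ± 0.0499 TPM.

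Of 24 cardiac transcription factors, 23 reached 1 TPM. Nkx2-5, the homeobox factor that marks the cardiac lineage, was by far the highest at 444, 366 and 435 TPM, and its spread was 1.13. Hopx, a homeodomain protein without DNA binding, stood at 81.7, 74.4 and 123 TPM, Gata4 at 83.0, 65.7 and 49.3 TPM, and Myocd, the coactivator of serum response factor, at 52.1, 36.5 and 47.2 TPM. The factor under 1 TPM was Isl1, a marker of second heart field progenitors, at 0.424, 0.145 and 0.195 TPM. Of 23 factors with at least 5 CPM, 4 (17.4%, against 6.42% of all genes) had a spread over 2-fold: Tead1, whose transcripts are described further on, and Gata5, Tbx2 and Hand1, which were lowest in sham 3 with spreads of 3.19, 3.82 and 2.01. Tbx2, a repressor of the chamber program in the atrioventricular canal, stood at 10.1, 9.88 and 2.63 CPM.

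Both glycolytic and fatty acid genes were high. All 19 glycolysis genes reached 1 TPM and 12 reached 100, and the list summed to 15186, 11629 and 14167 TPM. Aldoa, muscle and fetal aldolase, led at 3598, 2701 and 3285 TPM, followed by Gapdh (2325, 2066 and 2103 TPM), Pgam2 (1809, 1561 and 2009.6 TPM) and Ldha. Aldoa, Ldha and Gapdh had spreads of 1.02, 1.05 and 1.08, smaller than the median of 1.30 over all 9763 genes. Tpi1, triose phosphate isomerase, stood far under its neighbours in the pathway at 25.8, 14.4 and 36.1 TPM, and was the only member with a spread over 2-fold, 2.33. Whether its low level is one of RNA or of the estimate was not tested.

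The 18 fatty acid oxidation genes summed to 4509, 3733 and 6539 TPM, with 10 at 100 TPM or more. Fabp3, the heart fatty acid binding protein, led at 1861, 1649.7 and 3335 TPM. Etfb, which passes electrons from the acyl-CoA dehydrogenases to the respiratory chain, followed at 1077, 882 and 1255 TPM. The fatty acid transporter Cd36 stood at 75.4, 99.8 and 247 CPM, the only gene of the list with a spread over 2-fold, and Fabp3 had a spread of 1.96. Sham 3 was the highest pool for both, and also for Ckm, the muscle creatine kinase (2106, 2771 and 5226 CPM).

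Mitochondrially encoded proteins held 2.90%, 3.03% and 4.79% of TPM. The highest were mt-Atp8 (5566, 5554 and 9516 TPM), mt-Co3 (6917, 4583 and 8283 TPM) and mt-Cytb (4235, 4529.6 and 8832 TPM). In CPM, 5 of 12 of these genes (41.7%, against 6.42% of all genes) had a spread over 2-fold. Of the 5, 3 were highest in sham 2 and 2 in sham 3, against 2.64% and 3.11% of all genes. Sham 1 was the lowest pool for mt-Cytb, mt-Nd1 and mt-Atp8, of which mt-Atp8 had a spread of only 1.63. The level of mt-Co1, at 249.6, 245 and 422 TPM, was far under that of the other cytochrome oxidase genes.

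Several high values belong to pseudogenes that share sequence with an active gene, and Salmon's split between the 2 is uncertain. Gm28437, listed at 4695, 5879 and 7535 TPM, has all of its 31-base words in mt-Co3 as well, and Gm10925, at 3478, 3392 and 4858 TPM, all of its in mt-Atp6. Rps2-ps10 shares 82.1% of its words with the ribosomal gene Rps2 and was listed at 3091, 2532 and 2428 TPM, while Rps2 itself was listed at 13.8, 11 and 12.4 TPM. Gm1821 shares 86.3% with polyubiquitin Ubb, Gm13394 96.8% with Gapdh, and Gm12481, Ndufb4c and Gm10123 all of theirs with Serf2, Ndufb4 and Ppia. Pseudogenes as a class held 5.01% ± 0.581 of TPM (SD, n = 3).

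Cell cycle genes were all expressed, 20 of 20 at 1 TPM or more and 18 at 10. Ccnd3, a G1 cyclin, led at 628, 436 and 478 TPM, and the mitotic kinase Cdk1 stood at 168, 129 and 169.7 TPM. Ccnd2 had 156, 118 and 111 TPM and Top2a, the topoisomerase of dividing cells, 20.8, 19.9 and 20.3 TPM. One of the 20 genes had a spread over 2-fold: Cdkn1c, an imprinted inhibitor of cyclin-dependent kinases, at 127, 236 and 66.3 CPM. Hist1h2ap, a replication-dependent histone, was among the 25 highest genes at 4389.6, 2867 and 2188 TPM, and was lowest in sham 3.

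Among the fetal growth genes, Igf2, the imprinted fetal growth factor, stood at 1196, 1165 and 1078 TPM, 99.3% ± 0.216 of its pair with Igf1. Mest and Grb10, both imprinted, followed at 620.2, 339 and 429.7 TPM and at 172, 92.0 and 169 TPM. The RNA-binding proteins Igf2bp1 and Igf2bp3, which are silenced in most adult tissues, had means of 9.98 ± 2.07 and 7.56 ± 2.35 TPM. Lin28b, the let-7 inhibitor, was under 1 TPM. Of the m6A machinery 16 of 17 genes reached 1 TPM. The reader Hnrnpa2b1 had 213, 149.6 and 203 TPM, the demethylases Fto 39.7, 21.7 and 34.2 TPM and Alkbh5 19.7, 13 and 19 TPM, and the methyltransferase subunits Mettl3 and Mettl14 means of 6.55 ± 1.26 and 2.14 ± 0.559 TPM. None of the 16 with at least 5 CPM had a spread over 2-fold, which is near the 6.42% of all genes.

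The label of heart tissue matched its markers: 25 of 25 cardiomyocyte genes reached 1 TPM and 22 reached 100, and the list summed to 57604, 51606 and 65157 TPM. Smpx, a small muscle protein, was the only member with a spread over 2-fold. Sums over lists depend on which genes they hold and are no cell counts.

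The other resident cell types of the heart were all detected at lower levels. Fibroblast and mesenchyme genes (12 of 12 at 1 TPM or more) summed to 1102, 881 and 1066 TPM, led by Vim, Col1a1 (268, 163 and 243 TPM) and Col3a1. Endothelial genes (12 of 12) summed to 347, 258 and 310.4 TPM, led by Eng and Esam. Pecam1 and Cdh5, the adhesion proteins of endothelial junctions, had a spread of 1.05 each, and the median spread of the endothelial list was 1.13 against 1.30 over all genes. Smooth muscle and pericyte genes summed to 1441, 1026 and 1074 TPM, of which Acta2, an actin that fetal cardiomyocytes also make, was 1158, 839.9 and 883 TPM.

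Endocardial genes summed to 160.0, 119.8 and 98.0 TPM, led by Plvap of fenestrated endothelium. Epicardial genes summed to 134, 92.2 and 85.8 TPM, with the epicardial factor Wt1 at 6.74, 4.32 and 5.29 TPM. Macrophage genes summed to 105, 86.9 and 80.7 TPM, led by the complement genes C1qb and C1qc, with the pan-leukocyte gene Ptprc at 0.0677, 0.0498 and 0.123 TPM. Of the 12 fibroblast genes, 2 had a spread over 2-fold, against 6.42% of all genes: the matrix genes Postn and Dcn, both highest in sham 3 at 2.82 and 2.14. Of the 10 smooth muscle and pericyte genes, 2 did: Rgs5, highest in sham 3 at 2.73, and Myh11, the smooth muscle myosin, highest in sham 1 at 12.1, 2.86 and 2.55 CPM. The other members of both lists stayed under 2-fold, with different pools highest.

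**Figure D3:**
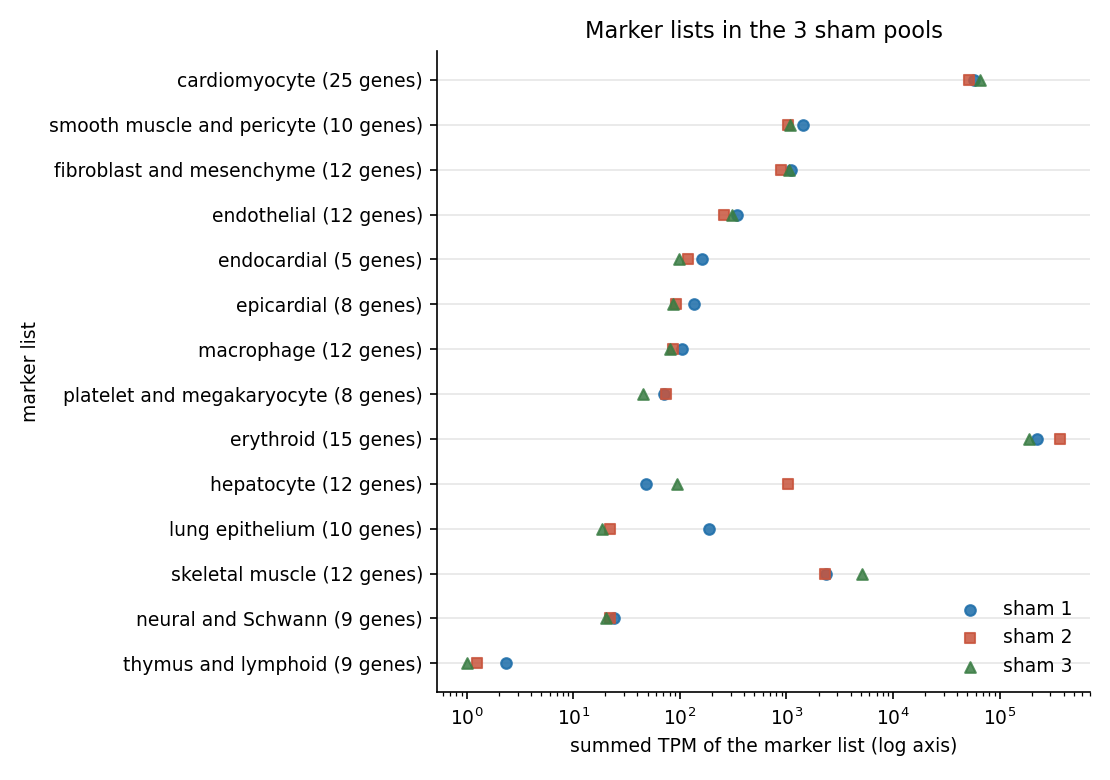
Summed TPM of 14 marker lists (x axis, log scale) in the 3 sham pools, one point per pool. The erythroid list (187409 to 369957 TPM) and the cardiomyocyte list (51606 to 65157 TPM) lie far right, and the hepatocyte point of sham 2 (1027 TPM) and the lung point of sham 1 (189 TPM) stand away from the other pools.

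Red-cell transcripts were the most abundant and among the most variable. Hba-a1, an adult-type alpha globin, was the highest gene of all at 91944, 162705 and 62218 TPM, followed by the adult beta globin Hbb-bs (55684, 96316 and 81294 TPM) and Hba-a2 (61678, 93941 and 36775 TPM). Hba-a1 and Hba-a2 are near-identical copies, so their split is uncertain. Haemoglobin took 12.3%, 23.3% and 10.5% of reads, a mean of 15.4% ± 6.91 (SD, n = 3), and 11.4% without sham 2. All 13 erythroid genes with at least 5 CPM had a spread over 2-fold, against 6.42% of all genes, and 10 of them were highest in sham 2, where 2.64% of all genes were over 2-fold with sham 2 highest. The list was made with earlier results of these data known. Klf1, the erythroid Krüppel-like factor, stood at 3.74, 36.8 and 2.11 CPM, and the band 3 anion exchanger Slc4a1 at 84.5, 267 and 48.0 CPM. Gata1, a factor of red-cell precursors, stood at 0.609, 12.0 and 0.702 CPM.

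The 3 erythroid genes that were not highest in sham 2 were the embryonic globins, all of them highest in sham 1 and lowest in sham 3. Over all genes, 0.666% were over 2-fold with sham 1 highest. Hbb-y stood at 7078, 2831 and 165 TPM, Hba-x at 1201, 601 and 48.2 TPM, and Hbb-bh1 at 41.9, 15.4 and 1.93 TPM. Hbb-y and Hbb-bh1 together held 10.1%, 2.54% and 0.190% of beta-like globin TPM, and Hba-x 0.775%, 0.234% and 0.0487% of alpha-like globin TPM. The embryonic part of the globins therefore ranked sham 1, sham 2, sham 3, which was not the order of total haemoglobin. The alpha-like genes held 68.8%, 69.6% and 52.9% of all globin TPM.

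The promoters of Hbb-y, Hbb-bs and Hba-a1 are shown because these genes set the largest values and the widest spread of an abundant gene; the layout is that of the sarcomere promoters. Capitals mark CCAAT, CCACACCC (a Krüppel-like factor motif) and the TATA-like words CATATAAG and CATAAAAG. The windows are chr7:103853208-103853327, minus strand, for Hbb-y, chr7:103827929-103828048, minus strand, for Hbb-bs, and chr11:32283552-32283671, plus strand, for Hba-a1.
Hbb-y: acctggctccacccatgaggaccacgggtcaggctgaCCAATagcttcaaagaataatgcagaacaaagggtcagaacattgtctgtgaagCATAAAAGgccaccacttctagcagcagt
Hbb-bs: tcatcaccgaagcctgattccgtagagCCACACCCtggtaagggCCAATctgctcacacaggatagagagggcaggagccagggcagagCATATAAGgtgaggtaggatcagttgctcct
Hba-a1: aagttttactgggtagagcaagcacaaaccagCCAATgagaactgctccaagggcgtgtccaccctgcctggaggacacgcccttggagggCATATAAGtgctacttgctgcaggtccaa
All 3 hold CCAAT, at 83 (Hbb-y), 76 (Hbb-bs) and 88 (Hba-a1) bases before the start, and a TATA-like word at 29, 31 and 29. CCACACCC was found in the Hbb-bs window only, 93 bases before the start. Over 250 bases and both strands, CCAAT occurs in 34.5% of 27025 promoters, CCACACCC in 3.19%, CATATAAG in 0.451% and CATAAAAG in 0.958%. CCAAT was in 7 of the 9 haemoglobin promoters listed.

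Hepatocyte transcripts came almost entirely from sham 2. The list summed to 48.1, 1027 and 94.8 TPM, a mean of 390.1 ± 552 (SD, n = 3), and 71.5 TPM without sham 2. All 11 members with at least 5 CPM had a spread over 2-fold and all were highest in sham 2. This list too was made with earlier results of these data known. Alb, serum albumin, stood at 2.80, 136 and 16.2 CPM, Afp, its fetal relative alpha-fetoprotein, at 4.71, 178 and 13.3 CPM, and Apoa1, the high-density lipoprotein protein, at 4.71, 196 and 13 CPM. In TPM, Apoa2 was the highest at 7.27, 266 and 17. Sham 3 exceeded sham 1 for Alb, Afp, Apoa1 and Apoa2, by less than either differed from sham 2. The red-cell precursor genes Klf1 and Gata1 and the neutrophil granule gene Mpo (2.52, 31.2 and 2.72 CPM) were also highest in sham 2.

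Lung epithelium, which lies beside the heart in the chest, was represented by Sftpc, surfactant protein C, at 178, 20.4 and 15.5 TPM. Sham 1 exceeded the other pools there, and also in Epcam, an epithelial adhesion protein (5.12, 1.17 and 0.307 CPM). Of the 10 lung genes, 3 reached a mean of 1 TPM: Sftpc, Epcam and the secretoglobin Scgb3a2, which was highest in sham 3 at 1.23, 0.203 and 1.90 TPM. Sftpd had no read in any pool, where 3 reads would be 0.132, 0.175 and 0.133 CPM before TMM scaling. The keratin Krt15 also stood highest in sham 1, at 25.9, 2.02 and 0.351 CPM.

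The skeletal muscle list summed to 2340, 2306 and 5129 TPM, of which Ckm, also a heart gene, made up 2323, 2295 and 5104. Its defining factors were absent or nearly so: Myf5 had no read, and Myod1 had 0.332, 0.130 and 0.0804 TPM. Thymus and lymphoid genes summed to 2.31, 1.23 and 1.01 TPM, with Rag2 and Dntt at 0 reads. Neural and Schwann genes summed to 24.3, 22.1 and 20.1 TPM, nearly all of it Hand2, which is also a cardiac transcription factor. Y-linked genes, which depend on the share of male hearts, were lowest in sham 1: Eif2s3y stood at 2.07, 12.2 and 15.6 CPM and Ddx3y at 1.58, 8.58 and 12.7 CPM. Xist, H19 and Ahsp were not among the quantified genes with a symbol, and of 14 long noncoding RNAs looked for only Tug1 (4.88, 2.03 and 5.33 TPM) was.

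Most genes were close between pools. The median spread of the 9763 genes with at least 5 CPM was 1.30, 73.9% of them were under 1.5-fold, and 627 (6.42%) were over 2-fold. The biological coefficient of variation, edgeR's common estimate over these genes, was 21.5%. Of the 627 genes, 304 were highest in sham 3 (3.11% of all genes), 258 in sham 2 (2.64%) and 65 in sham 1 (0.666%). By level, 11% of genes at 5 to 10 CPM, 3.41% at 100 to 1000 CPM and 8.93% at 1000 CPM or more passed 2-fold. Log2(TPM + 1) over the 11082 expressed genes correlated with Pearson's r of 0.980 (sham 1 and 2), 0.977 (sham 1 and 3) and 0.972 (sham 2 and 3). These are correlations across genes that share a tissue, a protocol and gene length, and are given as a description. No 2 libraries agreed within counting noise (chi-square per gene of 105 to 196), the check made for duplicate deposits. Without sham 3 the count over 2-fold was 153, without sham 2 it was 362 and without sham 1 375, where 2 pools have less room to differ than 3.

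**Figure D4:**
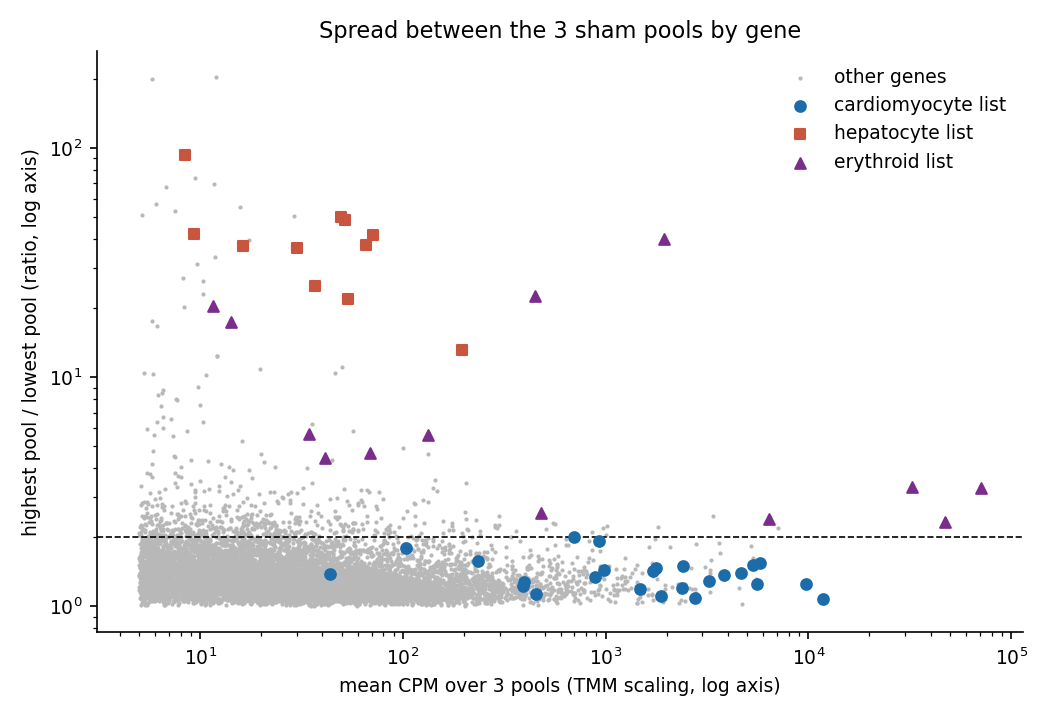
Highest pool over lowest pool (y axis, ratio, log scale) against mean CPM (x axis, log scale) for the 9763 genes that averaged 5 CPM or more; the dashed line marks 2-fold, and 1 gene with no read in 2 pools is not drawn. Hepatocyte genes (squares) lie between 13.1 and 93.1, erythroid genes (triangles) above 2 throughout, and cardiomyocyte genes (circles) near or under the line.

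The widest spreads were few: 83 genes were over 4-fold and 43 over 10-fold. Of the 43, 30 were highest in sham 2, 8 in sham 1 and 5 in sham 3, and 11 belong to the hepatocyte list and 4 to the erythroid list. Among genes of at least 10 CPM the widest was Gm20388, a gene model with a provisional name, listed at 47.0 CPM in sham 2 and with no read in sham 1 and 3. Among genes with an ordinary symbol, the only ones ranked further, the widest was Kng1, the kininogen precursor made by liver, at 0.162, 33.1 and 2.72 CPM. Serpina6, Serpinf2, Serpina1a and Ttr, further secreted liver proteins, also stood among the 12 widest of these, with spreads of 50.7, 39.6, 37.2 and 36.6.

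Tns3 and Tpgs1, also among these 12, were of another kind, low in sham 2. Tns3, a focal adhesion tensin, stood at 25.2, 0.455 and 21.6 CPM and Tpgs1, a tubulin polyglutamylase subunit, at 18.2, 0.260 and 16.7 CPM. In each, the leading transcript was listed at 0 in sham 2 alone: Tns3-201 at 3.31, 0 and 2.61 TPM and Tpgs1-201 at 23.6, 0 and 18.8 TPM. Tead1, a Hippo pathway factor chosen here after its values were seen, had the same pattern, with Tead1-202 at 1.50, 0 and 1.44 TPM. Whether these zeros are losses of RNA or of the estimate was not tested.

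At the other end stood genes with nearly equal values. Dync1li1, a dynein light intermediate chain, had 35.1, 35.0 and 35.0 CPM and Asna1, a targeting factor for tail-anchored proteins, 202, 202 and 202 CPM. Anxa5, annexin A5, had 391, 388 and 389 CPM. Of the usual reference genes, Gapdh (spread 1.08) and Ppia (1.14) were steadier than Actb (1.48; 3575, 3225 and 2423 CPM) and Hprt (1.81; 124, 136 and 225 CPM). The reads of Gapdh and Ppia are split with the pseudogenes Gm13394 and Gm10123, and that split is uncertain. Tfrc, the transferrin receptor, was the only one of 15 over 2-fold, at 2.22.

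Gene length moved with the pools to a small degree. In the shortest of 5 length classes (median 961 bases) sham 1 lay 0.14 log2 units under the mean of the other pools, and in the longest class (median 4651 bases) 0.05 above it. Sham 3 went the other way, from 0.09 above to -0.01, and sham 2 from 0.03 to -0.05, with -0.07 in the class before the longest. The part of this in the differences above was not tested.

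Dominant transcripts were counted in 4553 genes with at least 10 TPM and 2 or more quantified transcripts. In 1757 of them (38.6%) 1 transcript held at least 90% of the gene's TPM, and in 736 (16.2%) the leading transcript held under 50%. The median leading share was 79.9%, and its median SD over pools was 2.88 percentage points. In 489 genes (10.7%) the leading transcript was not the same in all pools, and none of these was a gene led at 90% or more. Without sham 1, 2 and 3 in turn, 366, 285 and 351 genes had a leading transcript that differed, where 2 pools have less room to differ than 3.

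**Figure D5:**
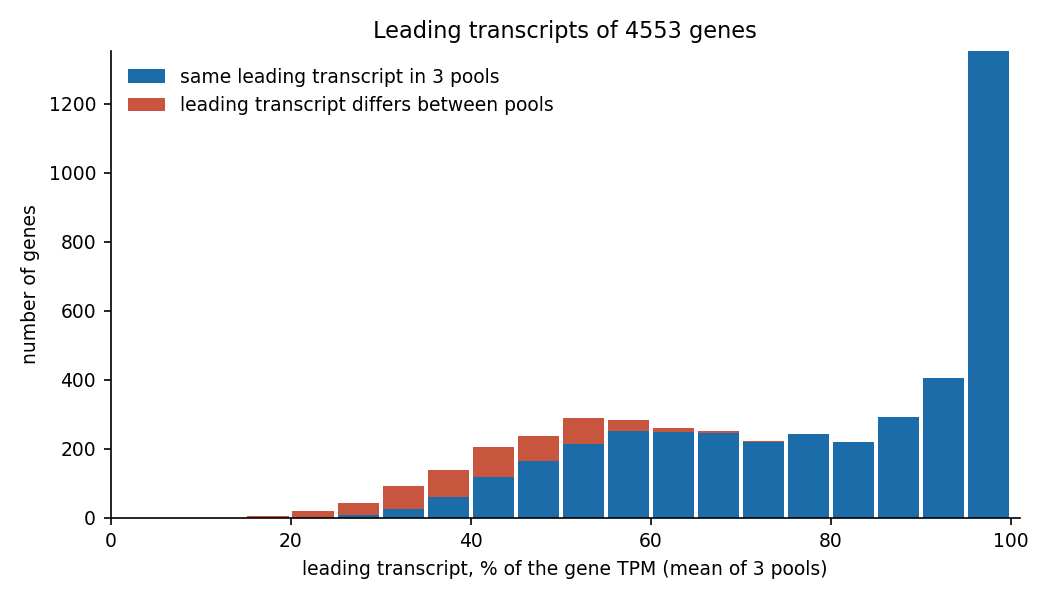
Number of genes (y axis) by the share of gene TPM held by the leading transcript (x axis, percent, mean of 3 pools, bins of 5), split by whether the leading transcript was the same in the 3 pools. The last bin, 95% to 100%, holds 1353 genes, and differing leads lie below 80%.

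Some heart muscle genes had 1 clear form. Tpm1-205 held 95.7%, 96.6% and 96.8% of Tpm1 TPM. Others were divided in a way that repeated between pools: Tnnt2-205 held 33.2%, 34.2% and 34.5% of troponin T, with Tnnt2-209 next at 23.2%, 19.2% and 22.1%, and Ldb3-203 60.2%, 62.7% and 61.4% of the Z-disc adaptor Ldb3. Pkm, the pyruvate kinase of which 2 forms exclude each other's exon, was split between Pkm-202 (52.3%, 53.1% and 57.8%) and Pkm-201 (47.4%, 46.7% and 41.9%). Mef2c, a muscle factor with 31 quantified transcripts, had no stable leader: Mef2c-217 held 27.1%, 9.29% and 19.6%, and Mef2c-219 3.35%, 10.2% and 22.2%.

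In Myh7, Myh6, Actn2 and Myom1, of which Myh6 was chosen after its values were seen, a short annotated fragment carried much of the TPM, and its share was highest in sham 2. Myh7-206, a retained-intron fragment of 595 bases, held 51.6%, 67.7% and 46.7% of Myh7 TPM, and the full coding form Myh7-201 (6135 bases) 47.5%, 31.9% and 52.1%. Myh6-207, of 542 bases, held 60.6%, 78.3% and 50.2% of Myh6, and Actn2-205, of 501 bases, 21.4%, 40.3% and 18% of Actn2. Myom1-208, of 941 bases, held 64.9%, 75.5% and 65.3% of the M-band gene Myom1. Between the long forms alone, Myh7-201 held 78.3%, 76.7% and 79.4% of the sum with Myh6-205, a narrower range than the gene totals gave.

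Long genes as a class did not show the same order of pools gene by gene. In the 1894 coding genes of at least 10 TPM with a transcript of 3000 bases or more, transcripts under 1000 bases held 41.1%, 44.3% and 43.5% of the summed TPM, a figure that abundant genes set. The median over the 1677 of these genes with such a short transcript was 9.77%, 9% and 9.81%, and 553 of the 1677 had their highest share in sham 2. TPM assumes reads spread over a whole transcript, and whether they did here was not tested. Gene TPM of such genes can therefore rest on a short fragment, while their CPM does not depend on that division. Ttn shows the extreme: Ttn-215, of 2159 bases, held 46.0%, 41.8% and 39.5% of TPM, and the 81999-base Ttn-201 9.40%, 7.67% and 9.99%.

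Of 4527 coding genes in the set, 403 (8.9%) were led by a transcript not classed as coding: 158 by a processed transcript, 125 by a retained intron, 118 by a nonsense-mediated decay form and 2 by a non-stop form. Lars2-209, a decay form of 3756 bases, was assigned 99%, 99.4% and 99% of Lars2, a mitochondrial leucyl-tRNA synthetase. The coding Lars2-201, of 3894 bases, was assigned 0.897%, 0.553% and 0.964%. Whether this division is one of RNA or of the estimate was not tested. Gapdh-206, a retained-intron fragment of 565 bases, held 52.9%, 62.1% and 52.2% of Gapdh, and Ppia-201, a decay form, 63.9%, 68.2% and 63.9% of Ppia. By TPM over all transcripts, coding forms held 88.3% ± 1.10, processed transcripts 3.02% ± 0.336, retained introns 2.25% ± 0.116 and decay forms 1.56% ± 0.154 (SD, n = 3 each).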

How the data were processed

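RNA of 3 sham pools of fetal hearts was analysed. Each deposited file gives, per transcript, Salmon's estimated counts of reads, not scaled between libraries, per the file headers. The TPM column, per the file headers, is Salmon's length-corrected share of the same reads. Names in the submitters' processing notes, which give no roles, are Salmon 1.5.2, HISAT2 2.2.1, DESeq2 1.34.0 and a genome build, GRCm39; the transcript set is not given in the sources used here. Of 116747 transcripts, 115685 matched GENCODE M21 (GRCm38) by identifier, giving 35458 genes; the other 1062 held 0.597% to 0.770% of reads and were left out.

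Reads and TPM were summed per gene with pandas 2.3.3. Reads were rounded and scaled by TMM in edgeR 4.0.16 (R 4.3.3), which also gave the dispersion, with an intercept only. Spread was read at a mean of at least 5 CPM and transcripts at a mean of at least 10 TPM. The code of the spread count was run on simulated counts with a smaller biological variation than these pools had. That checks the code and does not test the number of genes found. No comparison was tested, so no p-value is given. With 17152365 to 22720009 reads a pool, 3 reads, the limit that a count of 0 allows, were 0.132 to 0.175 CPM before TMM scaling; this covers counting error only.

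Genes were named by a rule: the 25 highest genes, the 4 highest members of 30 lists and members with no read, 18 pairs, the 12 widest and 8 narrowest spreads at 10 CPM or more among genes with an ordinary symbol, and set isoform genes. Other genes, among them Gm20388, Mpo, Krt15, Tead1, Klf1, Gata1 and the lower list members, were chosen after their values were seen. The lists and the choice of the sham pools were made with earlier results of these data known. Promoters came from RefSeq (GRCm38.p6). Alternatives were another unit, scaling or threshold and each pool left out in turn.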

Additional observations from a re-analysis of the deposited data

How the results depend on the processing

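No paired analysis was possible because the sham pools form 1 group and no result comes from a test. Of 55 alternative values of 9 main results, 37 stayed within the spread of the pools or, for counts, within 1.5 times, and 18 moved. A mean of 3 pools cannot move by 1 SD when 1 pool is left out, so the 37 hold values that were bound to stay. Among them is the hepatocyte level without sham 2, 71.5 against 390.1 TPM, where sham 2 alone made the SD 552. In TPM, the 10 highest genes held 29.9% and haemoglobin 26.1%; without haemoglobin, mitochondrial and rRNA genes the 10 highest held 7.73% of reads. The sarcomere share was 7.27% of reads, and 8.44% with those genes set aside. Genes with 1 dominant transcript numbered 3336 from 1 TPM and 736 from 50 TPM. Genes whose leading transcript differed numbered 1950 from 1 TPM, 103 from 50 TPM and 310 with coding transcripts only, and 285 to 366 with 1 pool left out. Genes over 2-fold numbered 1276 in TPM, 1553 from 1 CPM, 254 from 20 CPM, 8421 with no filter, and 153 to 375 with 1 pool left out. These thresholds change how many genes are counted; the cause of the other shifts was not tested. Of the 18 pair shares, 12 moved by over 1 SD as shares of reads. None of 54 values did so with 1 pool left out, which the same limit fixed in advance. RLE, upper-quartile and total-count scaling gave 592 to 640 genes over 2-fold. The coefficient of variation ran from 18.9% (20 CPM or more) to 24.9% (1 CPM or more). With 3 pools of unknown make-up, no spread can be divided into litter, dissection and library.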
